A study of Mus musculus with 8 samples.

Results

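The genes described here build, load and regulate major histocompatibility complex (MHC) class I molecules: the heavy chains H2-K1 and H2-D1, their partner B2m, the immunoproteasome subunits Psmb8, Psmb9 and Psmb10, the peptide transporter Tap1 and Tap2, the loading factor Tapbp, and the regulator Nlrc5. They were taken as every non-control probe whose gene name is one of these members, which gave 17 probes for 10 of the 37058 gene names on the array. Of the 17 probes, 15 were tested, having a signal well above background on both replicates of 1 treatment group or more, and 14 had such a signal on all 8 arrays. Each member is given by its probe with the highest mean, and for all 10 members that probe was above background on every array.

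Class I molecules carry short peptides from proteins made inside a cell to its surface, where CD8 T cells read them. The peptides are cut by proteasomes, among them the immunoproteasome, whose catalytic subunits are swapped in after exposure to interferon gamma. They are pumped into the endoplasmic reticulum by the transporter associated with antigen processing, and fitted into a heavy chain paired with beta-2-microglobulin while tapasin holds the complex together. Nlrc5 is a transactivator of class I genes. Tumors can lose steps of this chain and so escape T-cell recognition.

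CT26 is a colon carcinoma line of BALB/c mice, and 500000 of its cells were placed under the skin of the flank. The study's methods describe its mice as female and 6 to 10 weeks old. Treatment ran for 2 weeks in 4 groups, namely vehicle, TP-16 (also called BY001, an antagonist of the prostaglandin E2 receptor EP4) by mouth every day at 75 mg/kg, an antibody against PD-1 into the peritoneum at 50 µg a mouse in 2 doses a week, and the combination of both agents. RNA of whole tumors was hybridized to 8 single-color Agilent arrays, 2 for each group. A level below is the log2 of a probe's processed intensity minus the 75th percentile of its array, so that a difference of 1 is a 2-fold difference in signal, and levels are compared between arrays and not between genes.

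The 75th percentile itself was at intensities of 371.1 and 378.6 on the vehicle arrays, 530.8 and 551.1 with TP-16, 398.4 and 415.3 with anti-PD-1, and 607.9 and 733.7 with the combination. On each array the signal of 51.4% to 59.7% of probes was well above background. All 8 arrays lay on 1 slide, with vehicle and TP-16 in row 1, anti-PD-1 and the combination in row 2, and the arrays that had TP-16 in columns 3 and 4. Slide row and antibody, and slide column and TP-16, cannot be told apart.

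Vehicle replicate 1 stood apart for these genes. The median level of the 10 members was 4.12 on vehicle replicate 1 and 5.77 on vehicle replicate 2, against 6.10 and 6.01 with TP-16, 6.33 and 6.10 with anti-PD-1, and 6.30 and 6.39 with the combination. By this median the vehicle arrays differed from each other by more than vehicle replicate 2 differed from any treated array. The gap between the replicates of a group, taken gene by gene, had a median over the members of 1.32 in vehicle (from 0.13 for B2m to 1.98 for Psmb9), 0.07 in TP-16, 0.15 in anti-PD-1 and 0.10 in the combination. Over all 31912 tested probes the same median gap was 0.25, 0.19, 0.15 and 0.19, so that the members were far apart between the vehicle arrays and no farther apart than other probes between the replicates of any treated group. The main values against vehicle are therefore given below with and without vehicle replicate 1. It was the lowest of the 8 arrays for 9 of the 10 members and for 14.3% of all tested probes.

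The heavy chains form the groove that holds the peptide. H2-K1 was at 7.78 and 8.50 on the vehicle arrays, 8.43 and 8.37 with TP-16, 8.65 and 8.51 with anti-PD-1, and 8.34 and 8.27 with the combination. H2-D1 was at 7.37 and 8.04 in vehicle, 8.03 and 8.15 with TP-16, 8.22 and 8.07 with anti-PD-1, and 8.03 and 8.05 with the combination. For both genes vehicle replicate 1 was the lowest array and vehicle replicate 2 lay among the treated arrays, so that of the treated groups only anti-PD-1 did not overlap vehicle. Ordered by group mean, H2-K1 stood at 8.14 ± 0.51 (SD of 2 arrays) in vehicle, 8.30 ± 0.06 with the combination, 8.40 ± 0.04 with TP-16 and 8.58 ± 0.10 with anti-PD-1, and each step was smaller than the spread of the vehicle arrays. The order for H2-D1 was vehicle at 7.71 ± 0.48, the combination at 8.04 ± 0.02, TP-16 at 8.09 ± 0.08 and anti-PD-1 at 8.14 ± 0.11, again within the vehicle spread.

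B2m, the light chain that every class I heavy chain needs to reach the surface, had another pattern. It was at 8.32 and 8.45 in vehicle, 8.11 and 8.11 with TP-16, 8.45 and 8.45 with anti-PD-1, and 8.06 and 7.76 with the combination. The arrays with TP-16, alone or with the antibody, were the lowest 4, and they did not overlap the vehicle or anti-PD-1 arrays on this scale. It was the member with the smallest gap between the vehicle arrays.

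Psmb8, Psmb9 and Psmb10 replace the standard catalytic subunits when an immunoproteasome is assembled. Psmb8 was at 3.50 and 5.31 in vehicle, 5.50 and 5.46 with TP-16, 5.71 and 5.55 with anti-PD-1, and 5.72 and 5.83 with the combination. Psmb9 was at 3.85 and 5.83 in vehicle, 6.04 and 5.96 with TP-16, 6.42 and 6.16 with anti-PD-1, and 6.34 and 6.39 with the combination. In both, all 6 treated arrays lay above both vehicle arrays, but vehicle replicate 2 was much nearer to them than to vehicle replicate 1. Psmb10 was at 5.66 and 6.98 in vehicle, 6.96 and 6.94 with TP-16, 7.17 and 7.10 with anti-PD-1, and 7.02 and 7.01 with the combination. There vehicle replicate 2 lay above both TP-16 arrays, and the 6 treated arrays together spanned only 0.23 log2 units.

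Tap1 and Tap2 are the subunits of the transporter that brings peptides into the endoplasmic reticulum. Tap1 was at 2.27 and 3.97 in vehicle, 4.41 and 4.29 with TP-16, 4.36 and 4.23 with anti-PD-1, and 4.68 and 4.79 with the combination. All treated arrays were above both vehicle arrays and the combination arrays were the highest. Tap2 was at 3.70 and 4.90 in vehicle, 4.74 and 4.73 with TP-16, 5.48 and 5.32 with anti-PD-1, and 5.79 and 6.09 with the combination. It was graded across the groups, with TP-16 inside the vehicle range, anti-PD-1 above it and the combination above anti-PD-1, and its treated arrays spanned 1.37 log2 units, the widest of the 10 members. Tapbp, which encodes tapasin, the bridge between the transporter and an empty class I molecule, was at 4.38 and 5.71 in vehicle, 6.16 and 6.06 with TP-16, 6.24 and 6.04 with anti-PD-1, and 6.27 and 6.38 with the combination. All 6 treated arrays lay above both vehicle arrays, and the combination arrays were the highest.

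Nlrc5, which acts on the promoters of class I genes, was at 0.97 and 2.41 in vehicle, 2.87 and 2.46 with TP-16, 2.93 and 2.81 with anti-PD-1, and 3.14 and 3.44 with the combination. Every treated array was above both vehicle arrays, by little for the lower TP-16 array. Its group means ran from 1.69 ± 1.02 in vehicle through 2.67 ± 0.29 with TP-16 and 2.87 ± 0.08 with anti-PD-1 to 3.29 ± 0.22 with the combination (SD of 2 arrays), and the means with TP-16 and with anti-PD-1 differed by less than the TP-16 spread. Counted over the members, all 6 treated arrays were above both vehicle arrays for Tap1, Tapbp, Psmb8, Psmb9 and Nlrc5, 4 of the 6 were for H2-D1, Tap2 and Psmb10, 2 for H2-K1 and 1 for B2m. Of all 31912 tested probes, 8.20% had all 6 treated arrays above both vehicle arrays.

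**Figure D1:**
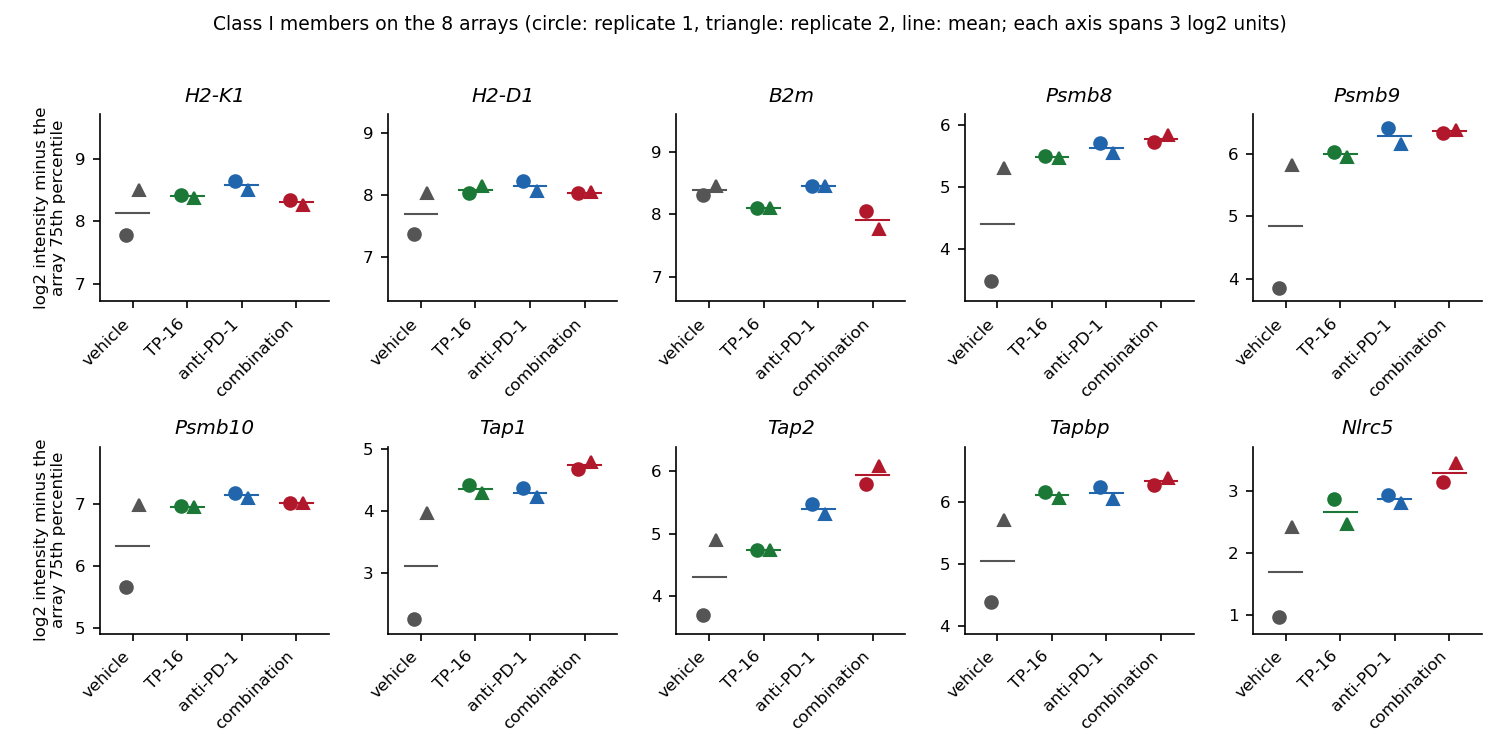
Level of each member (y axis, in log2 units counted from the 75th percentile of that array; every panel spans 3 log2 units) on the 8 arrays, by treatment group (x axis); circles are replicate 1, triangles replicate 2 and lines the mean of the 2 arrays. Vehicle replicate 1 is the lowest array for every member except B2m, and the replicates of each treated group lie close together.

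The comparison of the combination with vehicle asks how the tumors differ when both agents are given. Tap2 rose by 1.64 ± 0.38 (log2 fold change ± SE, 2 arrays against 2), a 3.12-fold higher signal with an adjusted p of 0.0256, and Nlrc5 rose by 1.60 ± 0.46, which is 3.03-fold, with an adjusted p of 0.0446. B2m fell by 0.48 on the log2 scale with an SE of 0.13 and an adjusted p of 0.0427, a direction that turned with the scaling of the arrays, as described further on. The other 7 members did not pass an adjusted p of 0.05. Their values were 1.61 ± 0.51 for Tap1 (adjusted p 0.0584), 1.28 ± 0.41 for Tapbp (0.0596), 1.53 ± 0.59 for Psmb9 (0.0965), 1.37 ± 0.54 for Psmb8 (0.0997), 0.69 ± 0.40 for Psmb10 (0.221), 0.34 ± 0.23 for H2-D1 (0.288) and 0.16 ± 0.23 for H2-K1 (0.621). The transporter, tapasin, Psmb8, Psmb9 and Nlrc5 thus had values between 1.28 and 1.64, while the heavy chains were at 0.34 and 0.16 on this scale.

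So 3 of the 10 members were called between combination and vehicle, 2 higher and 1 lower, and 32.0% of all 31912 tested probes were called in the same comparison, 9.10% higher and 22.9% lower. The share of members called was near that background, so the count is not a result about these genes. By the Student's test of the study's methods 0 of the 10 members passed, with or without adjustment, beside 25.8% of all probes at an unadjusted p under 0.05. The median log2 fold change of the members was 1.32, beside −0.20 over all tested probes, and 9 of the 10 were above that median. Measured from it, Tap2 was at 1.84, Nlrc5 at 1.80, H2-D1 at 0.54, H2-K1 at 0.36 and B2m at −0.27. Tumors were profiled whole, so that a difference in the number of cells of a type cannot be told apart from a difference in RNA per cell.

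Without vehicle replicate 1 the values of the members other than H2-K1 and B2m shrank. Called between combination and vehicle were then Tap2 at 1.04 ± 0.18 (adjusted p 0.0234), Nlrc5 at 0.88 ± 0.23 (0.0493), Tap1 at 0.76 ± 0.14 (0.0255) and Tapbp at 0.61 ± 0.15 (0.0431), 4 of 10 members beside 26.9% of all probes. B2m was at −0.54 with an adjusted p of 0.0657, Psmb9 at 0.54 and Psmb8 at 0.47. Psmb10 was at 0.03, H2-D1 at 0.00 and H2-K1 at −0.20, and none of these 3 genes passed. Without vehicle replicate 2 instead, 8 members were called, all of them higher, with Psmb9 at 2.51, Tap1 at 2.47 and Nlrc5 at 2.32, beside 21.2% of all probes. The median over the members was 0.50 without vehicle replicate 1 and 2.09 without vehicle replicate 2. Tap2 was at 1.04 without vehicle replicate 1 and at 2.24 without vehicle replicate 2, and Nlrc5 at 0.88 and 2.32. A fit with a single vehicle array holds no spread between vehicle arrays. For the members the median gap between replicates was 1.32 in vehicle and from 0.07 to 0.15 in the treated groups. Here and below, SEs, adjusted p and calls without a vehicle array therefore leave out the widest spread. The other arrays bore on the calls as well: without any 1 of the TP-16 or anti-PD-1 arrays Tap2 alone was called (beside 26.2% of all probes without a TP-16 array and 21.9% without an anti-PD-1 array), and without combination replicate 1 B2m alone (18.6%). Without combination replicate 2, limma called 0 members and 0 of all tested probes.

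**Figure D2:**
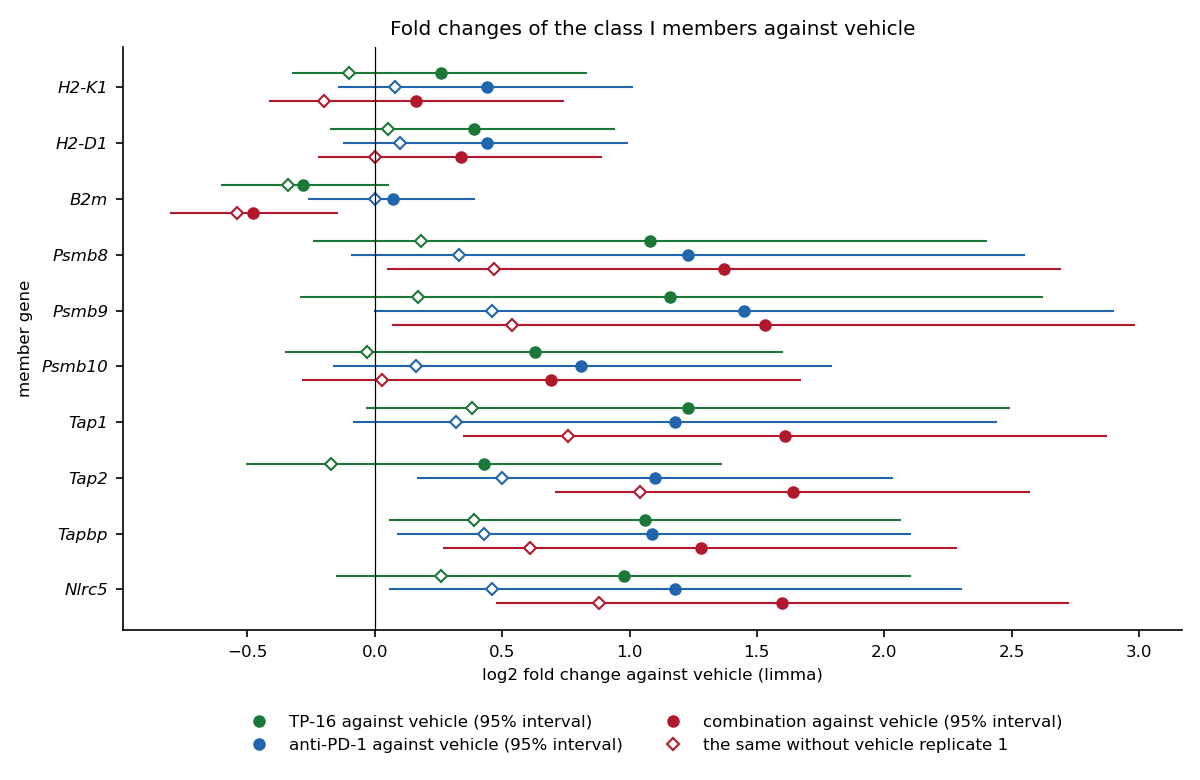
Log2 fold change against vehicle (x axis) of each member (y axis) for the combination and for each agent alone; filled circles are the limma estimates with their 95% confidence intervals, and open diamonds the estimates without vehicle replicate 1, drawn without intervals. The diamonds lie left of the circles for every member; for the combination they stay between 0.61 and 1.04 for Tap1, Tap2, Tapbp and Nlrc5 and lie near 0 for H2-D1 and Psmb10.

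TP-16 alone against vehicle asks what blocking EP4 does without the antibody. The values were 1.23 ± 0.51 for Tap1, 1.16 ± 0.59 for Psmb9, 1.08 ± 0.54 for Psmb8, 1.06 ± 0.41 for Tapbp, 0.98 ± 0.46 for Nlrc5, 0.63 ± 0.40 for Psmb10, 0.43 ± 0.38 for Tap2, 0.39 ± 0.23 for H2-D1, 0.26 ± 0.23 for H2-K1 and −0.28 ± 0.13 for B2m. None passed: limma called 0 of the 10 members, beside 0.0533% of all probes, with adjusted p from 0.177 to 0.518. At an unadjusted p under 0.05 limma gave 1 member, Tapbp, beside 25.9% of all probes, and the Student's test gave 0 beside 12.8%. The median over the members was 0.80, beside −0.12 over all probes, and it was 0.11 without vehicle replicate 1, where 0 members were called beside 2.81%, with values from −0.34 for B2m to 0.39 for Tapbp, 0.38 for Tap1 and −0.17 for Tap2. It was 1.49 without vehicle replicate 2, where Tap1, Tapbp, Psmb8, Psmb9 and Psmb10 were called, 5 members beside 1.12% of all probes.

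Anti-PD-1 alone against vehicle asks the same of the antibody. All 10 members had positive values, 1.45 ± 0.59 for Psmb9, 1.23 ± 0.54 for Psmb8, 1.18 ± 0.51 for Tap1, 1.18 ± 0.46 for Nlrc5, 1.10 ± 0.38 for Tap2, 1.09 ± 0.41 for Tapbp, 0.81 ± 0.40 for Psmb10, 0.44 ± 0.23 for H2-K1, 0.44 ± 0.23 for H2-D1 and 0.07 ± 0.13 for B2m. Limma called 0 of them, beside 0.0721% of all probes, with adjusted p from 0.312 to 0.832. At an unadjusted p under 0.05 it gave 3, Tap2, Tapbp and Nlrc5, beside 14.5% of all probes, and the Student's test gave 0 beside 10.4%. The median over the members was 1.10, beside −0.10 over all probes. It was 0.33 without vehicle replicate 1, where 0 members were called beside 0.517% and the values ran from 0.00 for B2m to 0.50 for Tap2, and 1.73 without vehicle replicate 2, where 6 members were called beside 0.921% of all probes. The comparisons with vehicle share the same 2 vehicle arrays, so their values are not independent of each other.

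The treated groups were close to each other for most members. Differences between them do not use the vehicle arrays, but their SEs do, as the fit takes 1 variance per probe from all 8 arrays. The SE of Tap2 between treated groups was, without vehicle replicate 1, 0.14 in place of 0.38, and of Nlrc5 0.19 in place of 0.46. Limma then called 0 members, beside 0.0219% of all probes, both for the combination against TP-16 (Tap2 adjusted p 0.0969) and for the combination against anti-PD-1 (lowest adjusted p 0.0922, for B2m). The combination against TP-16 alone, which asks what the antibody adds, gave 1.21 ± 0.38 for Tap2 (adjusted p 0.161) and 0.62 ± 0.46 for Nlrc5, while the other 8 members lay between −0.20 for B2m and 0.38 for Tap1. Limma called 0 of the 10 members and 0% of all probes. At an unadjusted p under 0.05 it gave 1 member, Tap2, beside 22.3% of all probes, and the Student's test gave 5 beside 12.2%. The median was 0.25, beside −0.08 over all probes.

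The combination against anti-PD-1 alone, which asks what TP-16 adds, gave values from −0.54 ± 0.13 for B2m (adjusted p 0.0878) to 0.54 ± 0.38 for Tap2, with Tap1 at 0.44 ± 0.51 and Nlrc5 at 0.42 ± 0.46. H2-K1 was at −0.27 ± 0.23 and H2-D1 at −0.10 ± 0.23. Limma called 0 of the 10 members, beside 0.0157% of all probes. At an unadjusted p under 0.05 it gave 1 member, B2m, beside 26.2% of all probes, and the Student's test gave 1 beside 19.0%. The median was 0.11, beside −0.10 over all probes.

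The departure from additivity sets the combination against the sum of both single-agent differences. It was negative for 9 members, from −0.27 ± 0.19 for B2m to −1.09 ± 0.84 for Psmb9, and 0.11 ± 0.53 for Tap2. The vehicle arrays enter this contrast too, and leaving out any 1 of the 8 arrays gave 0 called members as well. Limma called 0 of the 10 members and 0% of all probes, with adjusted p from 0.811 to 0.977, and at an unadjusted p under 0.05 it gave 0 members beside 7.32% of all probes. The median was −0.65, beside 0.01 over all probes. Without vehicle replicate 1 the median was −0.10, with Psmb9 at −0.10 ± 0.20, Psmb8 at −0.04 ± 0.18, Tap1 at 0.06 ± 0.18, Nlrc5 at 0.16 ± 0.30 and Tap2 at 0.71 ± 0.23 (adjusted p from 0.341 to 0.956 over the 10 members). Without vehicle replicate 2 it was −1.34, all 10 were negative and Psmb9 was at −2.08 ± 0.20 (adjusted p from 0.0948 to 0.686). The size of the negative values thus rested largely on vehicle replicate 1.

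The members' values changed with how the arrays were put on a common scale. The probes of 8 of the 10 members lay in the brightest 10% of all tested probes, whose median against vehicle in the combination was −0.52, and H2-K1 and B2m lay in the brightest 1%, with a median of −0.92. After quantile normalization these medians were −0.08 and −0.04. B2m was then at 8.56 and 8.67 in vehicle, 8.87 and 8.74 with TP-16, 8.90 and 8.87 with anti-PD-1 and 9.01 and 8.94 with the combination, counted from the median over tested probes. On that scale the combination arrays were the highest for B2m, not the lowest, and its log2 fold change was 0.36 (adjusted p 0.0496). It was 0.37 in the deposited log2 table, whose values have nearly the same distribution on every array, 0.09 with the array median subtracted and −0.35 after another background correction (normexp). Subtracting the array median moves all probes of an array alike, and B2m at 0.09 lay below the median of all probes, 0.37, by as much as on the main scale. Set against all probes, its direction therefore turned after quantile normalization and in the deposited table, and not with the array median or normexp.

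The other 9 members were higher with the combination under each of the scalings. H2-K1 and H2-D1, at 0.16 and 0.34 on the main scale, were at 1.00 (adjusted p 0.0284) and 1.13 (0.0266) after quantile normalization and were called there. Tap2 ranged from 1.64 to 2.21 and Nlrc5 from 1.60 to 2.17, and both were called under every scaling. The number of members called was 7 after quantile normalization, 8 with the array median, 7 after normexp and 8 in the deposited table, beside 25.4%, 19.1%, 52.0% and 25.4% of all probes. The median over all tested probes was −0.20 on the main scale, −0.01 after quantile normalization and in the deposited table, 0.37 with the array median and −0.28 after normexp. The share of called probes that were higher went with it, at 28.4%, 49.6%, 49.8%, 86.8% and 21.1% in the same order. The part of array brightness in these values was not tested.

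**Figure D3:**
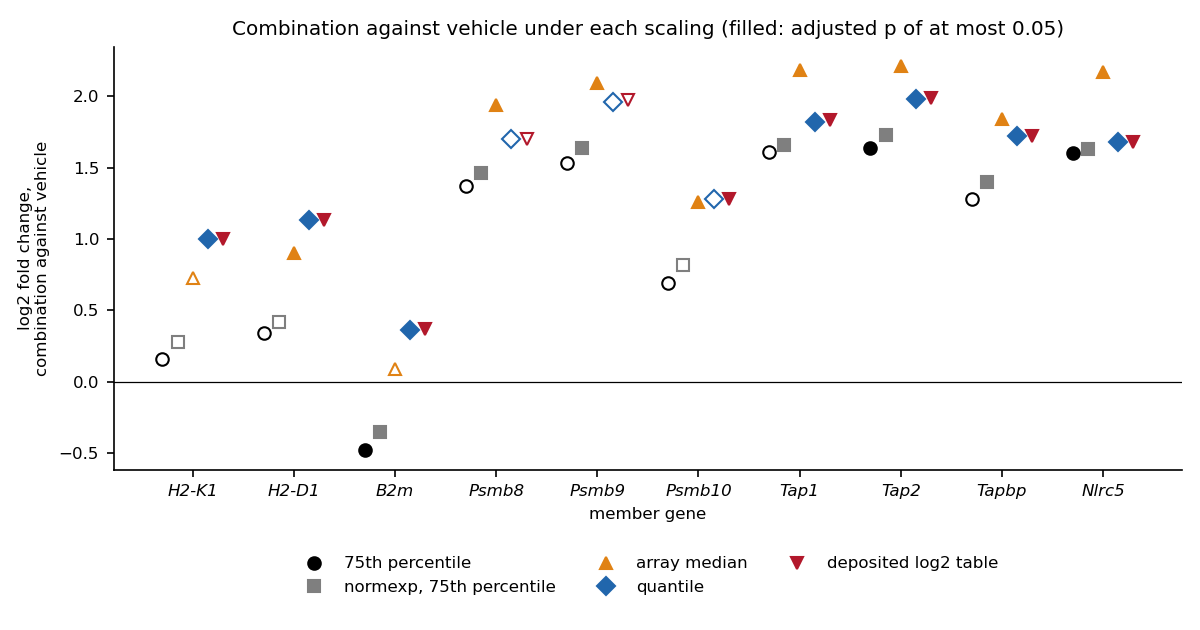
Log2 fold change of each member (x axis) between combination and vehicle (y axis) under 5 ways of scaling or correcting the arrays; filled symbols have an adjusted p of at most 0.05. Tap2 and Nlrc5 lie above 1.5 and are filled under each, and B2m lies below 0 under both 75th percentile scalings and above 0 under the other 3.

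Further probes of the same genes gave the same direction for 4 of the 5 members that had another tested one. The other Tap1 probe was at 1.86 ± 0.51 between combination and vehicle (adjusted p 0.0399), and the other Tapbp probe at 1.61 ± 0.33 (0.0196), so that both genes were called by their weaker probe and not by the brighter one. The other H2-K1 probe was at 0.47 ± 0.25 (0.188), and the other Nlrc5 probe, above background on 7 arrays, at 1.17 ± 0.46 (0.0989). The other B2m probe, which was far dimmer, was at 0.74 ± 0.25 (0.0711), opposite to the main one, with −0.45 and −0.19 on the vehicle arrays and 0.25 and 0.59 on the combination arrays. The other Tap2 and Psmb9 probes were not above background on any array. On an ungapped alignment the other H2-K1 probe shared 41 of its 60 bases with a probe for H2-L and 39 with one for H2-T23. The main H2-K1 and H2-D1 probes shared at most 27 of 60 with any probe for another class I heavy chain. These counts set probes against probes and not against transcripts, and the 2 H2-K1 probes shared only 19 of 60 with each other. A low count therefore does not show that a probe is specific, and binding to other heavy chain transcripts was not tested. Array probes follow the reference mouse, whereas BALB/c mice carry the H-2d haplotype, and the match of the heavy chain probes to that haplotype was not tested.

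The members' neighbors in the pathway were read from lists, in the combination against vehicle, where 9.10% of all tested probes rose and 22.9% fell. The counts of each list on the main scale are to be read beside these shares. Of all 31912 tested probes, 4018 rose after quantile normalization and 4042 in the deposited table. With the array median 5291 rose, and after normexp 3500. Counts under those scalings are to be read beside these numbers. Among 18 tested further class I heavy chains and related molecules, 7 rose and 0 fell, with a median of 0.70. Of the called genes the largest values were those of H2-T24 at 1.85, Cd1d1, which presents lipids, at 1.43, and H2-T9 and H2-T10 at 1.09 each. H2-Q5 (1.68, adjusted p 0.0535), H2-Q7 (0.52), H2-M3 (0.45) and H2-T23 (0.26), which presents leader peptides of other class I molecules, did not pass. The number risen was 12 after quantile normalization, in the deposited table and after normexp (where 1 fell), and 15 with the array median; H2-Q7 at 1.17 (adjusted p 0.0261) and H2-T23 at 0.96 (0.0335) were called after quantile normalization. With vehicle replicate 1 left out only H2-T24 rose, at 1.61, and H2-T3 fell by 1.27, with Cd1d1 at 1.15 (adjusted p 0.132), H2-T9 at 0.62 and H2-T10 at 0.61 not passing; without vehicle replicate 2 the number risen was 14. H2-Q6 and H2-Q9 were not on the array by name, and H2-M5, H2-M9, H2-M10.1 and H2-Q1 were above background on at most 1 array and were not tested.

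Of 10 loading partners, 2 rose and 3 fell, with a median of 0.03. Thus 5 of 10 were called, beside 32.0% of all tested probes, and the difference between these shares was not tested. Tapbpl, a relative of tapasin that edits peptides, rose by 1.46 ± 0.43, and Erap1, which trims peptides in the endoplasmic reticulum, rose by 0.91 ± 0.22; without vehicle replicate 1 they were at 0.77 and 0.59 and were called. Sec61g (−1.15) and Sec61b (−1.06), small subunits of the channel through which proteins enter the endoplasmic reticulum, fell on the main scale. With the array median subtracted they were at −0.58 and −0.49 and were not called. That scaling moves all probes alike, to a median of 0.37, and their distance from the median of all probes was unchanged, at −0.95 and −0.86. Of the list, 2 were called lower after quantile normalization and in the deposited table, and 3 after normexp. The chaperone Hspa5 (−0.45) fell on the main scale too and was at 0.16 after quantile normalization. The chaperones of class I folding, Calr (0.07), Canx (0.12) and Pdia3 (0.00), did not pass.

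Most of the other proteasome genes had lower values than the immunoproteasome subunits. Of 18 tested, 0 rose and 9 fell, with a median of −0.43 on the main scale, beside −0.20 over all probes. After quantile normalization it was 0.03 (2 higher and 1 lower), beside −0.01 over all probes. With the array median, which moves all probes alike, it was 0.14 (1 higher and 0 lower), beside 0.37 over all probes. In an immunoproteasome Psmb8 takes the place of Psmb5, Psmb9 that of Psmb6 and Psmb10 that of Psmb7. Psmb5 fell by 0.78 and Psmb6 fell by 0.69, and Psmb7 was at −0.31 ± 0.12 (adjusted p 0.0879). With the array median subtracted they were at −0.21, −0.12 and 0.26, and none passed, while Psmb8, Psmb9 and Psmb10 were at 1.94, 2.09 and 1.26. As that scaling moves all probes alike, distances from the median of all probes were unchanged. They were −0.58 for Psmb5, −0.49 for Psmb6 and −0.11 for Psmb7. On vehicle replicates 1 and 2 Psmb5 was at 4.96 and 5.19, so the wide vehicle gap of Psmb8 was not seen in its counterpart. Psme1, a subunit of the proteasome activator, was at 5.47 and 6.34 in vehicle and 6.31 and 6.35 with the combination, and at 0.43 ± 0.28 did not pass; after quantile normalization it was at 0.91 (adjusted p 0.0475). Psme2 was not on the array by name. Of 12 reference genes 0 rose and 4 fell, with a median of −0.35, and Rplp0 was at −0.90. After quantile normalization the median was 0.18 and Rplp0 was at 0.03. With the array median they were at 0.22 and −0.33, both still below the median of all probes, which that scaling moved to 0.37.

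Of 22 regulators of class I genes, 11 rose and 1 fell, with a median of 0.53. Ifng, the cytokine that induces this pathway, was at −3.58 and −0.49 in vehicle, 0.75 and 0.00 with TP-16, 1.09 and 0.70 with anti-PD-1, and 1.67 and 2.38 with the combination. Its vehicle gap was wide, as for the members, and all treated arrays lay above both vehicle arrays. It rose by 4.06 ± 0.96, while Irf1, a transcription factor induced by interferon, rose by 1.62 ± 0.39 and Ciita, the class II counterpart of Nlrc5, by 4.84 ± 0.91. These 3 rose under each scaling. Without vehicle replicate 1 they were at 2.52, 1.02 and 3.42, and without vehicle replicate 2 at 5.60, 2.23 and 6.27. Rfxank, a subunit of the complex that binds the X box of MHC promoters, fell by 0.51. With the array median subtracted it was at 0.05, but that scaling moves all probes alike, to a median of 0.37. Set against the median of all probes Rfxank was lower on both scales, at −0.31 on the main scale. The part of interferon gamma in the members' levels was not tested.

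Markers of T cells, NK cells, all leukocytes, macrophages and muscle were lower in sum on vehicle replicate 1 than on vehicle replicate 2, as the members were. Of 11 tested T-cell markers 6 rose and 0 fell, with a median of 2.83, and their summed signal, as multiples of the 75th percentile, was 9.05 and 22.4 in vehicle, 35.8 and 29.3 with TP-16, 35.4 and 28.2 with anti-PD-1 and 43.4 and 73.4 with the combination. The sums add probe signals and do not rank genes by their RNA. The Lck probe gave the strongest signal, Cd3e rose by 1.81, or by 1.21 without vehicle replicate 1, Cd8a was not above background on vehicle replicate 1 and rose by 1.96 without it, and Trac was not on the array by name. For 8 NK-cell markers, of which 3 rose and 0 fell, the sums were 10.7 and 48.2 in vehicle and from 50.4 to 73.6 on the treated arrays, with the strongest signal from Gzma. Under the other scalings 4 to 10 of the T-cell and 3 to 8 of the NK-cell markers rose and 0 fell. On the main scale it was 7 T-cell and 2 NK-cell markers without vehicle replicate 1, with medians of 1.40 and 1.11. Vehicle replicate 1 was thus the lowest array for the T-cell and NK-cell sums as it was for 9 of the members. For 8 markers of all leukocytes, of which 6 rose and 0 fell, with Ptprc at 1.88, the sums were 64.9 and 113 in vehicle and from 112 to 226 on the treated arrays, with the strongest signal from Cd52. For 10 macrophage markers, of which 7 rose and 0 fell, with Csf1r at 0.94, the sums were 150 and 202 in vehicle and from 180 to 398 on the treated arrays, with the strongest signal from C1qc. Of these 2 lists 4 and 2 markers rose without vehicle replicate 1, Ptprc at 1.59 being called and Csf1r at 0.76 not.

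Of 10 dendritic-cell markers 7 rose and 0 fell (6 and 0 without vehicle replicate 1), and vehicle replicate 1 was the lowest array for 6 of them. Their sum was 68.1 and 51.5 in vehicle and 54.6 and 49.6 with the combination, but the Siglech probe gave 77.2% of it, and Siglech, at −0.74, did not pass while the other 9 had positive values. Of 9 tested neutrophil markers 0 rose and 2 fell (0 and 3 without vehicle replicate 1). The counts were 2 and 2 after quantile normalization and in the deposited table, and 0 and 3 after normexp. With the array median subtracted, which moves all probes alike, they were 2 and 0. The neutrophil sums were 118 and 107 in vehicle and 70.9 and 56.7 with the combination. The strongest signal was that of Csf3r, and Ngp was above background on no array. Of 7 tested B-cell markers 1 rose and 3 fell, and the sums, with the strongest signal from Cd79b, were 1.33 and 1.81 in vehicle and 1.86 and 2.35 with the combination. Of those that fell, Cd79a and Pax5 were above background on 4 arrays only and Ms4a1 on 8. Fcrla, which rose, was above background on 6. Fibroblast markers, 5 of 8 risen and 0 fallen (3 and 0 without vehicle replicate 1), summed to 283 and 243 in vehicle and 465 and 489 with the combination, with the strongest signal from Col1a2. Endothelial markers, 1 of 8 risen and 0 fallen (0 and 0 without that array), summed to 12.8 and 10.4 in vehicle and 12.2 and 17.4 with the combination, with the strongest signal from Emcn. For 8 muscle markers, of which 0 rose and 0 fell by limma (Ckm at 0.43) and vehicle replicate 1 was the lowest array for all 8, the sums were 20.5 and 55.5 in vehicle and from 33.3 to 82.2 on the treated arrays, with the strongest signal from Acta1. Of 6 tested markers of colon epithelium 0 rose and 2 fell (0 and 1 without it); the Krt20 probe gave 89.1% of their summed signal, Epcam was above background on 1 array only, and Cdx1, Muc2 and Vil1 on none. The part of any cell type in the members' levels was not tested.

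Across the 8 arrays 9 of the members followed each other. The Pearson correlation of a member with the mean of the other members was between 0.80 for Tap2 and 0.99 for Psmb9 and Psmb10, and −0.24 for B2m. Without vehicle replicate 1, over 7 arrays, it was 0.91 for Psmb10, 0.84 for Psmb9 and 0.68 for Psmb8, but 0.45 for Tap2 and Tapbp, 0.41 for Nlrc5, 0.32 for H2-D1, 0.23 for Tap1 and 0.20 for H2-K1. The likeness of the members other than the immunoproteasome subunits thus rested largely on that array. These values describe 8 arrays in 4 groups and carry no test.

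The genes whose pattern was most like the mean of the members' standardized levels were sought among 23044 probes of 14845 other genes above background on all arrays. The closest 10 were Gm4841, Gm11127, Zbp1, Sp110, Tgtp2, Gzma, Casp1, Ubd, Gbp2b and A530032D15Rik, with Pearson correlations from 0.99 to 0.98. Zbp1 senses nucleic acids in Z form, Gbp2b is a guanylate-binding protein, Ubd is a ubiquitin-like modifier and Gzma is a protease of killer cells that is also in the NK-cell list above. Zbp1 was at 2.62 and 4.91 in vehicle, 5.09 and 5.28 with TP-16, 5.62 and 5.50 with anti-PD-1, and 5.44 and 5.66 with the combination, with vehicle replicate 1 alone far below, as for the members. Without the 2 arrays farthest from the median of the members' mean, vehicle replicate 1 and anti-PD-1 replicate 1, the correlations were between 0.30 for Gzma and 0.98 for Casp1. None of the 10 was called between combination and vehicle, with adjusted p from 0.0649 for Gbp2b to 0.249 for Gzma.

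Of the members, 7 lie on chromosome 17, within or beside the MHC itself. In the array's annotation (mm9) their main probes are placed, in order along it, at chr17:34066022-34066081 for Tapbp, 34133055 for H2-K1, 34319174 for Psmb9, 34334022 for Tap1, 34337771 for Psmb8, 34353116 for Tap2 and 35403886 for H2-D1. Psmb9, Tap1, Psmb8 and Tap2 are thus neighbors, and their vehicle gaps were 1.98, 1.71, 1.80 and 1.20. The other 3 lie elsewhere, B2m at chr2:121978401-121978460, Psmb10 at chr8:108459677-108459736 and Nlrc5 at chr8:97051105-97051164, with vehicle gaps of 0.13, 1.32 and 1.44. A wide gap between the vehicle arrays was therefore shared by genes on 2 chromosomes.

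Promoters were taken from RefSeq (GRCm38.p6, the C57BL/6J reference, while the mice were BALB/c), which held entries for 8 of the 10 members, all but Tap2 and Nlrc5. The 250 bases before each start were searched on both strands for short motifs of class I control. TTCNNNGAA, named GAS, was found in 1 of the 8 members, Psmb8, and 7.02% of 32851 promoters. AANNGAAA, an interferon regulatory factor element, was found in 3 of the 8 members and 21.3% of 32851 promoters. TGACG, the core of the X2 box, was in 5 members and 17.8%, and CCAAT, the Y box, in 6 members and 33.8%, the matches of Tap1 and Psmb9 being the same bases in each case. A match is a run of letters and was not tested as a binding site.

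The heavy chains and B2m, which pair in 1 molecule, hold an interferon element, TGACG and a Y box in the same order, and their windows are shown for that reason, 5′ to 3′ on the strand of the gene with every motif match in capitals, on either strand. From the interferon element to TGACG the distance between first bases is 49 bases in H2-K1, 49 in H2-D1 and 59 in B2m, and from TGACG to the Y box it is 25 in each of the 3. From the interferon element to the Y box H2-K1 and H2-D1 are identical at 69 of 79 bases. The windows are chr17:34000348-34000597 on the minus strand for H2-K1, chr17:35262844-35263093 on the plus strand for H2-D1 and chr2:122147437-122147686 on the plus strand for B2m.
H2-K1: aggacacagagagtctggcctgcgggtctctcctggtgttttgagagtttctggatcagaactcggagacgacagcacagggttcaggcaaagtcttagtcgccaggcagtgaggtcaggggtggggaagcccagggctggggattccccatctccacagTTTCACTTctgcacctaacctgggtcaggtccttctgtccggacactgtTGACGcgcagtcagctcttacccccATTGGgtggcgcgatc
H2-D1: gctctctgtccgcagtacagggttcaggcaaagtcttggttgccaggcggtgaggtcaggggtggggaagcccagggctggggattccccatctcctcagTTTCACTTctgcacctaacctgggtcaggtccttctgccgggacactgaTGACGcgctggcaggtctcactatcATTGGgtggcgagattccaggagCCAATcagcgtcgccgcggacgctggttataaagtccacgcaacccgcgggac
B2m: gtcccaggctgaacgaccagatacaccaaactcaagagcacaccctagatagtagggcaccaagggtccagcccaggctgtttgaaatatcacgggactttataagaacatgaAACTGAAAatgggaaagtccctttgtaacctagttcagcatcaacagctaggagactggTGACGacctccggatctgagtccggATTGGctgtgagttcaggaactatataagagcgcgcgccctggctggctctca

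Psmb9 and Tap1 start back to back, and the 225 bases between their starts serve as the upstream sequence of both. The stretch, chr17:34187331-34187555, is shown on the plus strand, the strand of Tap1, with the Y box near the Psmb9 start and TGACG in capitals. Between combination and vehicle these neighbors were at 1.53 ± 0.59 and 1.61 ± 0.51, and at 0.54 and 0.76 without vehicle replicate 1, which was far below the rest for both.
Psmb9 to Tap1: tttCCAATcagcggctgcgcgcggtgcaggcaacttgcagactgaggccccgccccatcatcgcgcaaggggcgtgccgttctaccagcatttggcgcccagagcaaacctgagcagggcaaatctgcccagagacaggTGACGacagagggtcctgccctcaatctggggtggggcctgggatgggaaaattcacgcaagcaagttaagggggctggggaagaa

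The number of arrays, 2 in each group, limits the precision of every value, and the labels and methods do not say whether an array held 1 tumor or a pool, although the series describes the replicates as independent. If they are not from separate animals, the p-values measure only the spread between these samples.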

How the data were processed

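Agilent SurePrint G3 arrays were read with Feature Extraction 10.7.1.1, per the submitters' processing notes. The deposited scanner files hold one-color intensity, from which the processed signal of each probe was taken. The authors also deposited a log2 table, used as an alternative. Log2 signals had the 75th percentile of their array subtracted, and the 31912 probes whose signal was well above background on both replicates of 1 group or more were fitted with limma 3.58.1 (R 4.3.3), with 1 mean per group over all 8 arrays. P-values, all two-sided, were adjusted over all these probes by the Benjamini-Hochberg method, and called means an adjusted p of at most 0.05. The fit was tested on simulated data, of which no value is given here, and no result rests on that test. Python 3.11.15 with pandas 2.3.3 and matplotlib 3.10.9 did the rest.

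All 10 members are named, and from the further lists the genes called between combination and vehicle, largest first, with a set of pathway genes named whether called or not; of the marker lists, the gene with the strongest signal and a few defining markers; and the 10 genes most like the members, of which names that are only sequence identifiers were left out. Members and lists were chosen with earlier results of these data known. Alternatives were other scalings, background correction, filters, probes, variance models and call rules, the deposited table, the replicate number as a block, and each array left out. No column of the deposited files was without a sample, so 0 were unused. For 38 of 56605 probes the only spot bore an outlier mark on some array, and they were left out.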

Additional observations from a re-analysis of the deposited data

Results flagged for a closer look

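B2m differed in direction between the single agents: both TP-16 arrays lay below the vehicle mean (log2 fold change −0.28) and both anti-PD-1 arrays above it (0.07). The difference between these agents was not tested, neither value passed against vehicle, and after quantile normalization both TP-16 arrays lay above the vehicle arrays.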

How the results depend on the processing

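Between combination and vehicle 3 members were called. The number was 7 after quantile normalization, 8 with the array median, 7 after normexp and 8 in the deposited log2 table. It was 0 with no filter on dim probes (beside 5736 of 56567 probes) and 5 with probes above background on all arrays (38.2% of all probes). A fit of the 4 compared arrays alone gave 0 (0%), as did the Student's test after adjustment (0%). The fold rule, which asks for a 2-fold difference and an unadjusted limma p up to 0.05, gave 6 (15.3%). With the Student's p of the study's methods in place of the limma p, that rule passed 0 members, beside 2255 of 31912 probes. With the replicate number as a block, 1 was called (27.3%), although the numbers do not pair arrays: the correlation of replicate differences between groups lay between −0.19 and 0.29. B2m was reversed to 0.36 after quantile normalization, 0.09 with the array median, 0.13 as the mean of its probes and 0.37 in the deposited table; with the array median all probes shift alike, to a median of 0.37.

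For TP-16 against vehicle, 7 were called with the array median, where the median was 1.42 over the members and 0.50 over all probes, beside 6.86% of all probes, and 1 by the fold rule beside 6.18%. For anti-PD-1 against vehicle it was 3 with the array median beside 1.63% of all probes and 3 by the fold rule beside 3.83%. For the combination against TP-16 it was 1 by the fold rule beside 4.34%, and against anti-PD-1 it was 1 after normexp beside 21.5% and 1 with trended, robust variance beside 8.57%. Except for the mean of a gene's probes and the fitted subsets, where fewer probes or arrays enter, the cause of these changes was not tested.

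Leaving out each array in turn kept the tested probes and assumed that a lone array varies like the other groups. For the members the vehicle arrays varied far more than the treated ones, so calls without a vehicle array do not meet that assumption. The called members then ranged from 0 to 8 for the combination, 0 to 5 for TP-16 and 0 to 6 for anti-PD-1 against vehicle, and were 0 throughout for the combination against TP-16 and against anti-PD-1 and for the departure from additivity. The medians ranged from 0.50 to 2.09, 0.11 to 1.49 and 0.33 to 1.73. Without vehicle replicate 1, H2-K1 was at −0.20 and H2-D1 at 0.00, and over all arrays left out they ranged from −0.20 to 0.52 and from 0.00 to 0.67. B2m ranged from −0.62 to −0.33, Tap1 from 0.76 to 2.47, Tap2 from 1.04 to 2.24, Tapbp from 0.61 to 1.94, Psmb8 from 0.47 to 2.27, Psmb9 from 0.54 to 2.51, Psmb10 from 0.03 to 1.35 and Nlrc5 from 0.88 to 2.32. The signal of all 10 members was above background on every array.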
